A study of Rattus norvegicus with 30 samples.

Results

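The 47 genes described here encode proteins of pre-mRNA splicing measured in the kidneys of young male rats: 17 heterogeneous nuclear ribonucleoproteins (hnRNP), 11 SR family genes (serine and arginine rich splicing factors, among them the annotated pseudogene *Srsf7-ps4*), 9 subunits of the SF3A and SF3B complexes and 10 proteins of the small nuclear ribonucleoprotein particles (snRNP). They were chosen by symbol alone (*Hnrnp*, *Srsf*, *Sf3a*, *Sf3b* and *Snrp* names) from 14217 genes with a probe set of their own, and each gene is given by its brightest probe set over all arrays. Between postnatal days 5 and 28 these genes became lower as a group under both maternal diets, and no gene was called different between the diets at any age.

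Splicing removes introns in the spliceosome, which assembles on each pre-mRNA from snRNP particles. The Sm proteins form a ring around the small nuclear RNAs, and the SF3A and SF3B complexes belong to the particle that binds the branch point. SR proteins mostly promote the use of exons, while many hnRNP proteins coat the transcript and hold exons or splice sites back, so the balance between both families shapes which mRNA forms a tissue makes. In the kidney, nephron formation continues for some days after birth in the rat, and dividing progenitors give way to differentiated tubules.

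The pups were of the stroke-prone spontaneously hypertensive strain (SHRSP). Their dams received 9% casein (low protein, LP) or 20% casein (control, CN) during pregnancy, and all dams ate an ordinary diet after delivery. Whole kidneys were taken on days 5 (D5-LP, D5-CN), 10 (D10-LP, D10-CN) and 28 (D28-LP, D28-CN), with 5 GeneChip rat arrays in each of the 6 groups. By their labels the 5 arrays of a group are biological replicates, but the methods describe renal RNA that was pooled by group, and litters are not given in the sources used here. The spread between arrays may therefore be technical, and p-values measure only that spread.

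The values are log2 expression levels as the authors normalized them, over 31042 probe sets. Arrays of one group correlated at 0.983 to 0.998 over all probe sets. Array means were 6.93 to 6.94 at D5 and 6.86 to 6.87 at D10 and D28, and it is not known whether the ages were normalized together. Comparisons between ages are therefore given as descriptions without a test. In whole kidney, fewer cells of a type and less RNA per cell cannot be told apart. The mean over the 47 genes was 10.54 on each of the D5-CN arrays 4 and 5, against 10.34 to 10.37 on the other D5-CN arrays and 10.35 to 10.46 on the D5-LP arrays. These 2 arrays were picked after the values were seen. Some results over the 47 genes together are also given without them: the CN medians and counts of lower genes from D5, and the diet lean at D5. So are the diet differences of the genes with the smallest p at D5 and the diet by age and averaged contrasts. Other values that rest on D5-CN, such as those of families, of single genes between ages and of other gene lists, include these arrays.

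Most of the 47 genes were bright. Their levels averaged over 30 arrays lay above the median probe set (6.80) for all but 3 genes, *Srsf3* (4.16), *Snrpn* (5.17) and *Srsf7* (5.80). Probe sets differ in brightness, so these levels do not order the transcripts by abundance. RefSeq lists pseudogenes named after 23 of the genes, 51 of them after *Hnrnpa1* and 10 after *Srsf3*, and whether the probes also read such copies was not tested.

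**Figure D1:**
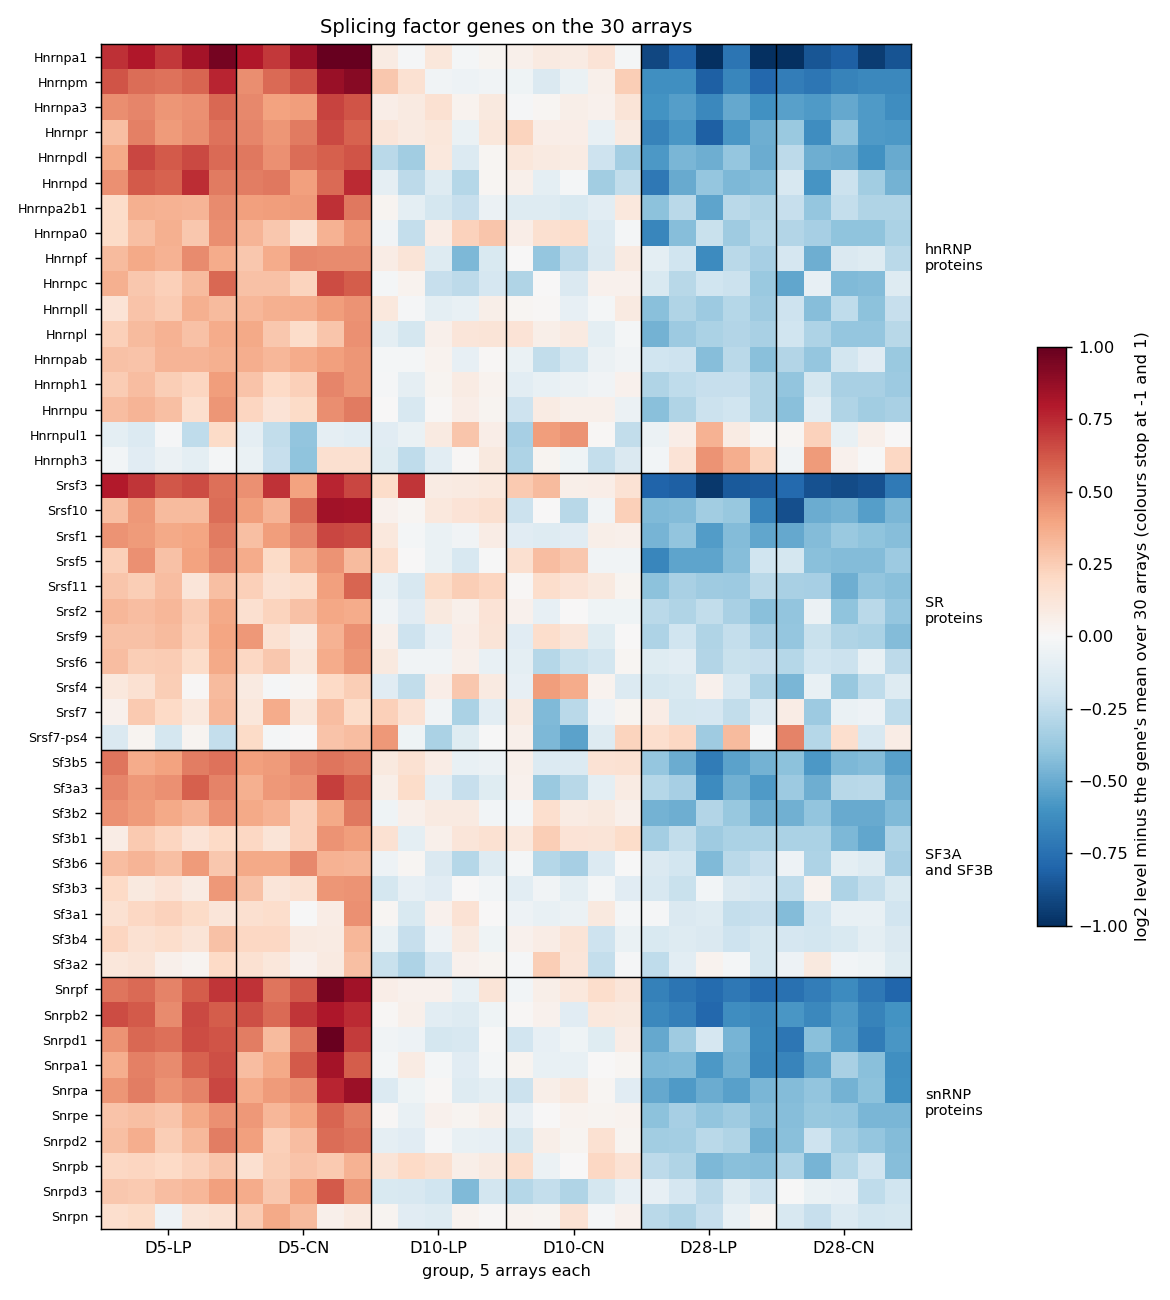
Log2 level of the 47 splicing factor genes on the 30 arrays, as the difference from each gene's mean over all arrays (colour, from -1 to 1), with genes in rows by family and arrays in columns by group. Most rows are high at D5, intermediate at D10 and low at D28, and the last pair of D5-CN arrays is darker than the rest of that group.

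From D5 to D28, 40 of the 47 genes were lower in LP with no overlap between the 5 arrays of each age, against 30.1% of all probe sets, and 43 of 47 were lower in CN, against 29% of all probe sets. No gene was higher on all D28 arrays in LP, against 21.3% of all probe sets, and 1 gene, *Hnrnpul1*, was in CN, against 20.7%. The median difference over the 47 genes, D28 minus D5, was −0.67 on the log2 scale in LP and −0.69 in CN, where all probe sets had medians of −0.04 and −0.03. Without the D5-CN arrays 4 and 5 the CN median was −0.61, with 43 genes lower and 2 higher on all D28 arrays. On the linear scale the median gene stood at 63.0% of its D5 level in LP and 61.9% in CN. Bright probe sets were lower at D28 more often than dim ones, so the count was also set against the brighter part of the array: among probe sets at or above the median level, 37.5% were lower in LP and 36.8% in CN, against 39 and 40 of the 44 bright members.

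The genes lower in LP were lower in CN too. All 40 genes that were lower in LP were among the 43 lower in CN, where 25.4% of all probe sets were lower in both diets, and no gene was higher in both, where 16.6% of all probe sets were. *Snrpn*, *Srsf4* and *Srsf7* were lower on all D28 arrays in CN alone. The differences of the 47 genes in LP and in CN correlated at r = 0.972, a description over genes that share their arrays, and r was 0.978 over all probe sets. The D28 level was lower by more than 1 on the log2 scale in both diets for 10 genes, against 4.98% of all probe sets.

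**Figure D2:**
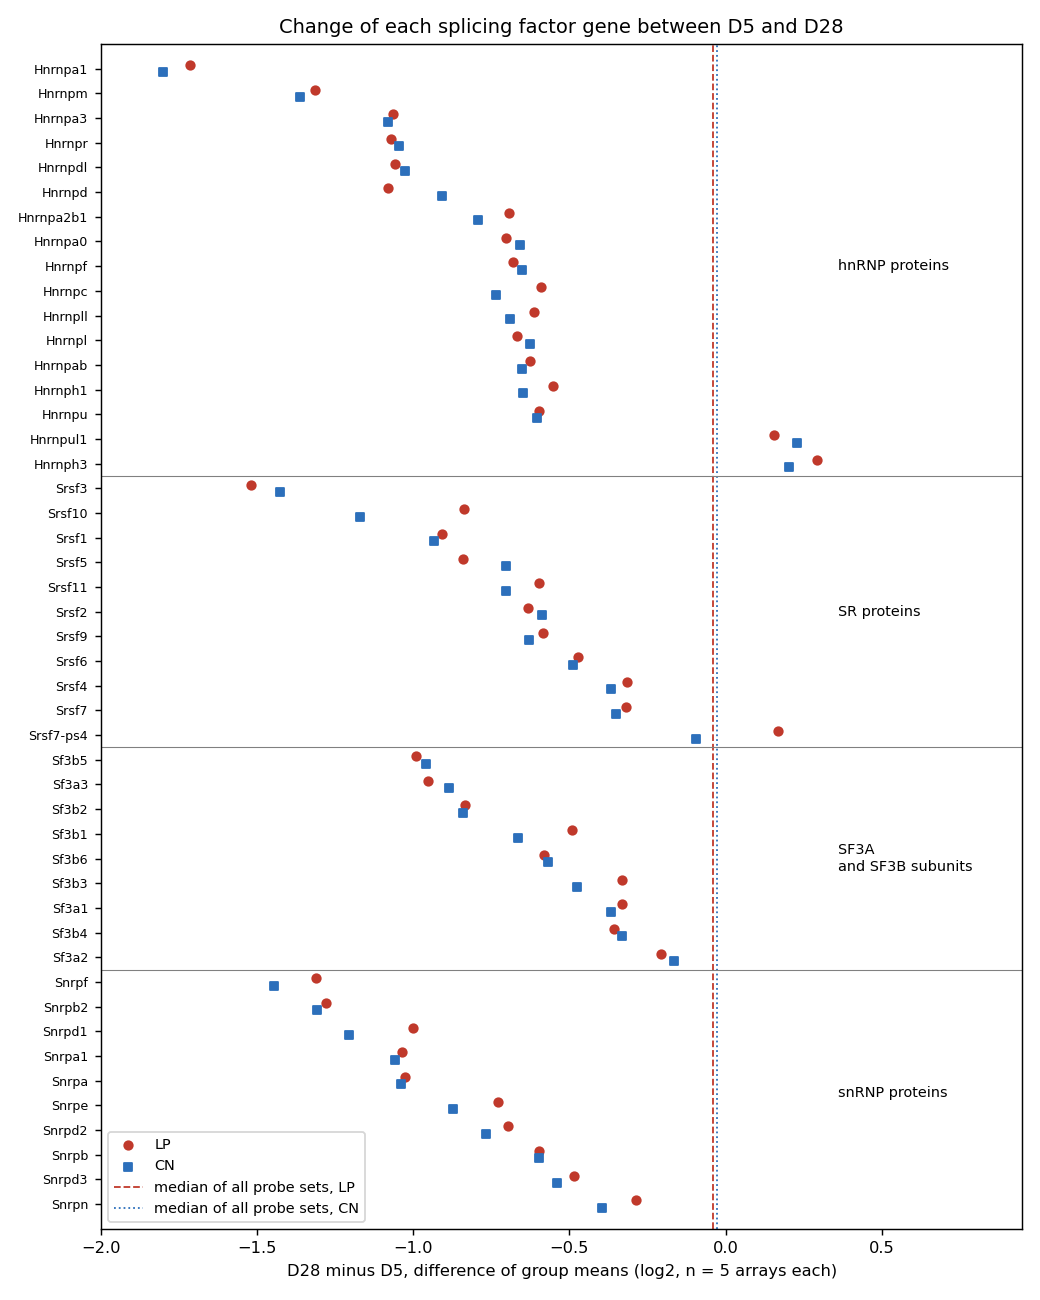
Difference of group means between D28 and D5 (log2, x axis) for each of the 47 genes in LP pups (circles) and CN pups (squares), grouped by family, with the median of all probe sets as vertical lines. All but 3 genes lie left of 0 in LP and all but 2 in CN, and the leftmost is *Hnrnpa1* at −1.72 in LP and −1.80 in CN.

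The hnRNP genes had a median difference of −0.68 in LP and −0.69 in CN. In each diet 15 of 17 were lower on every D28 array, against 30.1% of all probe sets in LP and 29% in CN. *Hnrnpa1*, which binds splicing silencers and opposes SR proteins, had the largest difference of the 47 genes. Its levels were 11.67, 11.75, 11.65, 11.77 and 11.90 in D5-LP and 11.74, 11.65, 11.80, 12.09 and 11.94 in D5-CN. At D10 they were 11.03, 10.94, 11.06, 10.92 and 10.97 in LP and 11.00, 11.03, 11.03, 11.08 and 10.92 in CN. At D28 they were 10.03, 10.14, 9.90, 10.21 and 9.87 in LP and 9.94, 10.09, 10.12, 9.99 and 10.08 in CN. The 3 ages did not overlap in either diet, and LP and CN overlapped at each age. The D28 level was 30.4% of the D5 level in LP and 28.7% in CN.

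*Hnrnpm*, which binds GU-rich stretches and can repress exons, was lower by a difference of −1.31 in LP and −1.36 in CN. *Hnrnpa3*, a relative of *Hnrnpa1*, differed by −1.07 in LP and −1.08 in CN, and *Hnrnpr*, which also acts on mRNA transport and stability, by −1.07 and −1.04. *Hnrnpd* (AUF1, which binds AU-rich elements and promotes mRNA decay) differed by −1.08 in LP and −0.91 in CN, with most of this already present at D10, where the difference from D5 was −0.74 in LP and −0.68 in CN. *Hnrnpdl*, a close relative that lies beside *Hnrnpd* on chromosome 14, differed by −1.06 in LP and −1.03 in CN.

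The genes without a lower mean level at D28 over both diets were *Hnrnph3* and *Hnrnpul1* of the hnRNP family and, among the SR genes, the pseudogene *Srsf7-ps4*. *Hnrnph3*, of the H and F subfamily that binds G-rich RNA, read 9.44, 9.35, 9.40, 9.37 and 9.45 in D5-LP and 9.40, 9.23, 9.06, 9.63 and 9.62 in D5-CN. At D28 it read 9.44, 9.60, 9.91, 9.83 and 9.69 in LP and 9.43, 9.89, 9.51, 9.46 and 9.67 in CN. The ages overlapped in both diets, with a difference of 0.29 in LP and 0.20 in CN. *Hnrnpul1*, a relative of *Hnrnpu* with a part in the response to DNA damage, read 8.48, 8.60, 8.88, 8.62 and 8.56 in D28-LP and 8.56, 8.77, 8.46, 8.59 and 8.54 in D28-CN. Its D5 levels were 8.44, 8.40, 8.52, 8.28 and 8.73 in LP and 8.45, 8.29, 8.14, 8.45 and 8.43 in CN. The ages were separate in CN by a narrow margin, with a difference of 0.23, and overlapped in LP, with a difference of 0.16.

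**Figure D3:**
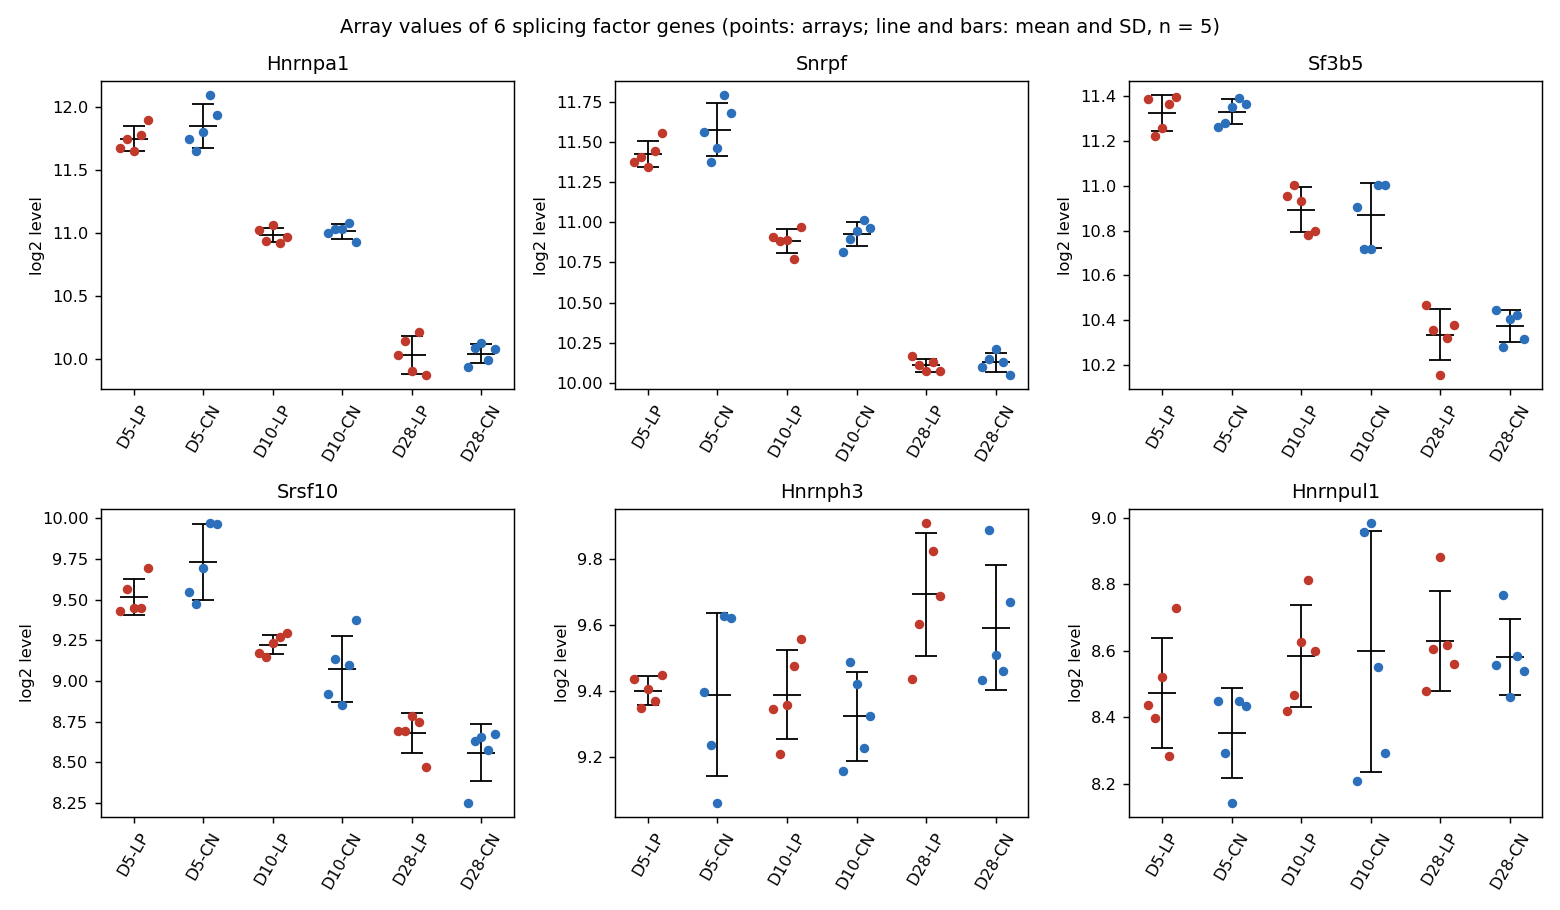
Log2 level of 6 genes on every array (points) by group, with the mean and SD of each group (n = 5 arrays). *Hnrnpa1*, *Snrpf*, *Sf3b5* and *Srsf10* step down with age in LP (red) and CN (blue), while *Hnrnph3* and *Hnrnpul1* overlap between most groups.

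The SR genes had a median difference of −0.60 in LP and −0.63 in CN. Lower on every D28 array were 8 of 11 in LP, against 30.1% of all probe sets, and 10 of 11 in CN, against 29%. *Srsf3*, the smallest SR protein, had the largest difference, −1.52 in LP and −1.43 in CN. Its mean level was 4.83 ± 0.09 in D5-LP, 4.77 ± 0.16 in D5-CN, 3.31 ± 0.07 in D28-LP and 3.34 ± 0.08 in D28-CN (SD, n = 5 arrays), so this probe set is among the dim ones. *Srsf1*, the founding member, which promotes exon inclusion, differed by −0.91 in LP and −0.93 in CN. The pseudogene *Srsf7-ps4* overlapped between D5 and D28 in both diets, with a difference of 0.17 in LP and −0.09 in CN, and its parent *Srsf7* differed by −0.32 in LP and −0.35 in CN, with separate arrays in CN alone.

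*Srsf10*, which represses splicing when dephosphorylated, had the widest gap between the diets in the difference between D28 and D5. Its levels were 9.43, 9.56, 9.45, 9.45 and 9.69 in D5-LP and 9.55, 9.47, 9.69, 9.97 and 9.97 in D5-CN. At D10 they were 9.17, 9.15, 9.24, 9.27 and 9.29 in LP and 8.92, 9.14, 8.85, 9.10 and 9.37 in CN. At D28 they were 8.69, 8.69, 8.79, 8.75 and 8.47 in LP and 8.25, 8.63, 8.66, 8.58 and 8.67 in CN. The ages were separate in both diets, and LP and CN overlapped at every age, with the top D5-CN values on arrays 4 and 5. The difference between D28 and D5 was −0.84 in LP and −1.17 in CN.

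The SF3A and SF3B genes differed least, with medians of −0.49 in LP and −0.57 in CN. In each diet 8 of 9 were lower on every D28 array, against 30.1% of all probe sets in LP and 29% in CN. *Sf3b5*, the smallest SF3B subunit, read 11.39, 11.22, 11.26, 11.36 and 11.40 in D5-LP and 11.26, 11.28, 11.35, 11.39 and 11.37 in D5-CN. At D10 it read 10.96, 11.01, 10.93, 10.78 and 10.80 in LP and 10.90, 10.72, 10.72, 11.00 and 11.00 in CN. At D28 it read 10.47, 10.36, 10.15, 10.32 and 10.38 in LP and 10.44, 10.28, 10.41, 10.42 and 10.31 in CN. The 3 ages were separate in both diets, and the D28 level was 50.3% of the D5 level in LP and 51.5% in CN. *Sf3b1*, the large subunit that clamps the branch point region, differed by −0.49 in LP and −0.67 in CN, with arrays of D5 and D10 that overlapped in both diets. *Sf3a2* was the one member of these complexes whose arrays overlapped in both diets, at −0.21 in LP and −0.17 in CN.

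The snRNP genes had the largest median difference of the 4 families, −0.86 in LP and −0.96 in CN. Lower on every D28 array were 9 of 10 in LP, against 30.1% of all probe sets, and 10 of 10 in CN, against 29%. The difference between families was not tested. *Snrpf*, a protein of the Sm ring, read 11.37, 11.41, 11.34, 11.45 and 11.55 in D5-LP and 11.56, 11.38, 11.46, 11.79 and 11.68 in D5-CN. At D10 it read 10.91, 10.89, 10.89, 10.77 and 10.97 in LP and 10.81, 10.90, 10.94, 11.02 and 10.97 in CN. At D28 it read 10.17, 10.11, 10.07, 10.13 and 10.08 in LP and 10.10, 10.15, 10.21, 10.13 and 10.05 in CN. The 3 ages were separate in both diets, with a difference between D28 and D5 of −1.31 in LP and −1.45 in CN.

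*Snrpb2* and *Snrpa1*, partner proteins of the particle that binds the branch point, differed by −1.28 and −1.04 in LP, and by −1.31 and −1.06 in CN. *Snrpa*, of the particle that recognizes the splice donor, differed by −1.03 in LP and −1.04 in CN. The Sm ring gene *Snrpd1* differed by −1.0 in LP and −1.21 in CN. *Snrpn*, an imprinted relative of *Snrpb* expressed chiefly in brain, was dim, with 5.00 ± 0.14 in D28-LP and 4.99 ± 0.03 in D28-CN, and differed from D5 by −0.29 in LP, where arrays overlapped, and −0.40 in CN. LP and CN differed in *Snrpn* by −0.10 on D5 arrays, −0.08 on D10 arrays and 0.01 on D28 arrays, and it was not called at any age.

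The genes were lower over both intervals. From D5 to D10, 34 genes were lower on all arrays in LP, against 20.3% of all probe sets, and 33 in CN, against 19.4%. None was higher on all arrays, against 7.8% of all probe sets in LP and 7.46% in CN. The median difference was −0.34 in LP and −0.43 in CN, where all probe sets had medians of −0.08 and −0.07. Without the D5-CN arrays 4 and 5 the CN median was −0.35, with 34 genes lower. From D10 to D28, 30 genes were lower in LP, against 21.1% of all probe sets, and 27 in CN, against 19.5%, with medians of −0.34 in LP and −0.35 in CN. None was higher, against 20.8% in LP and 20.7% in CN. Since array means were higher at D5 than at D10, the first interval depends on how the ages are scaled: after quantile normalization of all 30 arrays it held 23 lower genes in LP and 24 in CN, with medians of −0.20 and −0.28, and 13.2% and 13.4% of all probe sets were lower.

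The interval that held most of the difference was not the same for every gene. *Hnrnpa1*, *Hnrnpd* and *Snrpd1* had the lowest differences from D5 to D10 in the mean of both diets, at −0.77, −0.74 and −0.66 in LP, and at −0.83, −0.68 and −0.68 in CN. *Srsf3*, *Hnrnpa1* and *Snrpf* had the lowest from D10 to D28 by the same mean, at −1.09, −0.95 and −0.77 in LP, and at −0.99, −0.97 and −0.80 in CN. *Snrpd3*, another Sm ring gene, was lower by D10, at −0.54 in LP and −0.63 in CN, and then differed by 0.06 in LP and 0.10 in CN, with arrays that overlapped. *Snrpb*, which encodes the Sm B proteins, overlapped between D5 and D10 in both diets, at −0.10 in LP and −0.17 in CN, and was lower from D10 to D28 by −0.50 in LP and −0.43 in CN. *Hnrnpul1* was the only gene with a mean difference over both diets above 0 from D5 to D10, 0.11 in LP and 0.25 in CN, with overlap. From D10 to D28 *Hnrnph3*, *Srsf7-ps4* and *Snrpd3* had the highest differences, 0.30, 0.08 and 0.06 in LP, and 0.27, 0.23 and 0.10 in CN, all with overlap.

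For 15 of the genes the array holds more than 1 probe set, 28 further ones in all, which played no part in the results above. Of these 28, 20 were lower on every D28 array in both diets, against 25.4% of all probe sets. A mean difference below 0 was read by 26 of the 28, and the median of the 28 was −0.66. A few read differently from the brightest probe set of their gene. For *Hnrnpa1* the further probe sets gave mean differences over both diets of −0.75 and −1.88, against −1.76. For *Hnrnpdl* one further probe set gave 0.02 and the other −0.97, against −1.04. *Srsf6* differed more in its further probe sets, −1.36 and −1.33, against −0.48, while *Sf3b2* gave 0.03 against −0.84 and *Srsf10* between −0.19 and −0.97 against −1.0. The second probe set of *Hnrnph3* gave −0.22 against 0.25. Probe sets of one gene can read different transcript ends, and which forms these probes read was not tested.

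**Figure D4:**
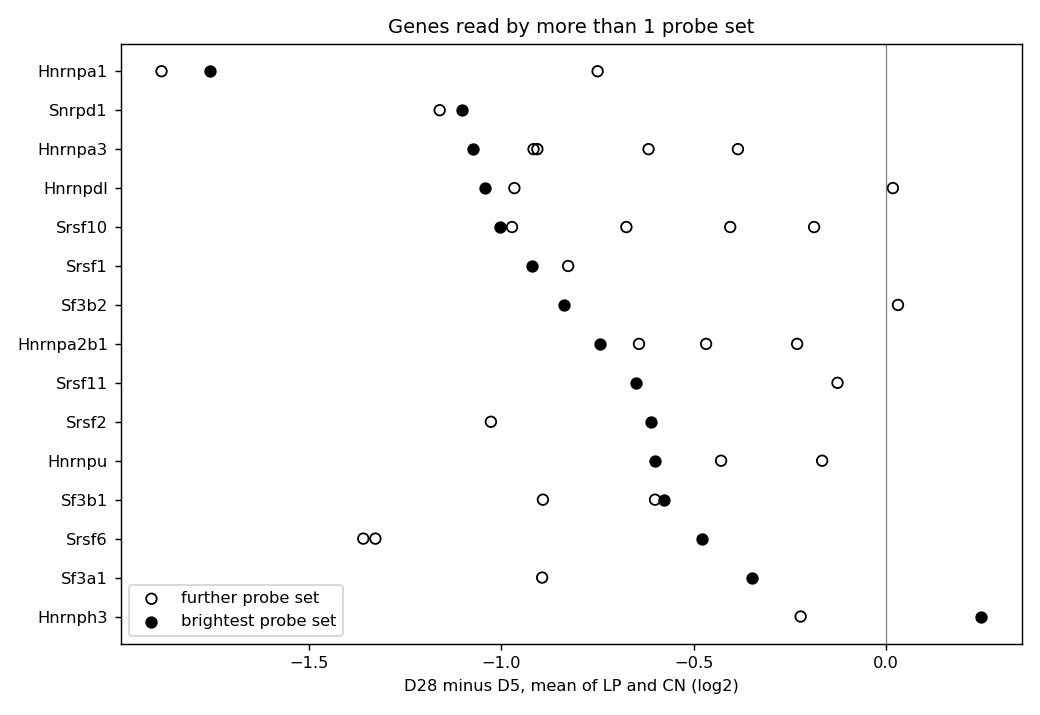
Difference between D28 and D5, as the mean of LP and CN (log2, x axis), for the 15 genes with more than 1 probe set, with the brightest probe set filled and the 28 further ones open. Most open points lie left of 0, and the widest gaps are those of *Hnrnpdl*, *Hnrnpa1*, *Srsf6*, *Sf3b2* and *Srsf10*.

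A wider list of other splicing genes, chosen by function and with earlier results of these data known, leaned the same way. Of its 138 genes 125 were measured, and 83 were lower at D28 than at D5 on all arrays in LP and 87 in CN, with 6 and 4 higher and medians of −0.42 and −0.47, where 30.1% and 29% of all probe sets were lower and 21.3% and 20.7% higher. The lowest were *Rbm3* (−2.21 in LP and −2.09 in CN) and *Cirbp* (−1.50 and −1.43), both cold-inducible RNA-binding proteins, *Mbnl3* of the muscleblind family (−1.73 and −2.0) and *Tia1*, which binds U-rich stretches beside splice donors (−1.38 and −1.41). The highest were the SR protein kinases *Clk1* (0.96 in LP and 0.79 in CN) and *Clk4* (0.58 and 0.47), the neuronal splicing regulator *Rbfox1* (0.74 and 0.71) and *Xab2*, a component of the spliceosome (0.34 and 0.52). *Clk1*, *Clk4* and *Rbfox1* were higher on every D28 array in both diets, and *Xab2* in CN alone. Over the 9 kinases and carriers of SR proteins, 3 were lower in each diet, 4 were higher in LP and 2 in CN, and the medians were 0.07 and 0.03. With 9 genes, 3 lower is near the share of all probe sets.

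Markers of dividing cells moved with the splicing genes. All 25 measured of 26 cell proliferation genes were lower on every D28 array than at D5 in both diets, against 25.4% of all probe sets. Their medians were −1.67 in LP and −1.78 in CN. Their mean level ranged from 9.30 to 9.57 in D5-LP, 9.34 to 9.74 in D5-CN, 7.58 to 7.87 in D28-LP and 7.54 to 8.07 in D28-CN. Of 11 nephron progenitor markers 7 were measured, of which 4 were lower and 1 was higher on every D28 array in each diet. Of all probe sets, 30.1% in LP and 29% in CN were lower. Of 12 kidney tubule markers 11 were measured, and 3 were higher and 1 lower in each diet, near the 21.3% in LP and 20.7% in CN of all probe sets that were higher. From D5 to D10, 5 of 7 measured adipose tissue markers were higher in LP, against 7.8% of all probe sets, and 6 in CN, against 7.46%. From D10 to D28, 4 of 5 measured red blood cell markers were higher in each diet, against 20.8% of all probe sets in LP and 20.7% in CN. The part of these markers in the age differences of the splicing genes was not tested.

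The promoters of the 47 genes were searched for short motifs on both strands, in the 300 bases around the annotated start that RefSeq gives for build GRCr8 (250 before it and 50 after). A promoter was matched by gene ID for 44 of the genes. The letters CCGGAAG (ETS factors) occurred in 14 of 44, 31.8%, against 11.2% of 18999 protein-coding promoters, and the NRF1 letters (GCGC, any base, TGCGC) in 9, 20.5%, against 6.08%. CCAAT occurred in 24, 54.5%, against 38.4%, and GGGCGG (SP1) in 28, 63.6%, against 43.1%. TTTCCCGC (E2F) occurred in 3, 6.82%, against 1.32% of all, and TATAAA in 5, 11.4%, against 13.1%. AAGATGGC (YY1) occurred in 1, 2.27%, against 3.92%, and TGACGTCA (CRE) in none, against 2.22%. These promoters were also richer in G and C, with a median of 60.7% against 55.3% and 25.5 against 12 CpG pairs, and GC-rich letters occur more often in such sequence. A match of letters is not a binding site.

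To show what such starts look like, the 100 bases before the start are given for the 5 genes with the lowest D28 levels relative to D5 among the 18 whose promoter begins at the edge of the annotated gene, 5′ to 3′ on the transcript strand, with letters of the CCAAT, SP1, NRF1, ETS and YY1 motifs of either strand in capitals. They lie at chr7:30024163-30024262 (*Snrpf*, minus strand), chr7:15178872-15178971 (*Hnrnpm*, minus), chr14:9861616-9861715 (*Hnrnpdl*, plus), chr1:9177089-9177188 (*Sf3b5*, plus) and chr4:81875887-81875986 (*Hnrnpa2b1*, minus).
Snrpf: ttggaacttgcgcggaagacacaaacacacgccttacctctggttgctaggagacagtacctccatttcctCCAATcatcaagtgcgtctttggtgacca
Hnrnpm: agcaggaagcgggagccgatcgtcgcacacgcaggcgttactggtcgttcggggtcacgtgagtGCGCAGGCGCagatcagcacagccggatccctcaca
Hnrnpdl: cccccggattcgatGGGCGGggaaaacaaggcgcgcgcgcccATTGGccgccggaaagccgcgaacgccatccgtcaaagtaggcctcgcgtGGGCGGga
Sf3b5: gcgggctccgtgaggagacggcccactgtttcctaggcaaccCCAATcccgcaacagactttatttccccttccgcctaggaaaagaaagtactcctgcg
Hnrnpa2b1: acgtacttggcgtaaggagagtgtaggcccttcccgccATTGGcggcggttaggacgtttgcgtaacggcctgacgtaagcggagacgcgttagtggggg
Within these 100 bases *Hnrnpm* carries the NRF1 letters and the others a CCAAT box in either direction. *Hnrnpdl* also carries the SP1 letters.

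The diets were compared within each age. By limma with Benjamini-Hochberg adjustment over 31042 probe sets at 0.2, none of the 47 genes was called between LP and CN. At D5 0.00644% of all probe sets were called, and 0% were at either later age. At an unadjusted p under 0.05, 2 genes differed at D5 (*Srsf7-ps4* and *Hnrnpa2b1*), 1 at D10 (*Srsf6*) and none at D28, where 8.19%, 5.02% and 6.09% of all probe sets did. Rank products, the method of the study, called none of the genes at an FDR under 0.2 at any age, while calling 2.16%, 0.744% and 3.05% of all probe sets at D5, D10 and D28. The equal-variance test named in the methods called none after adjustment. No gene had LP arrays that were all outside the range of the CN arrays, where 1.48%, 1.11% and 0.857% of probe sets had.

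The intervals show the size of difference these arrays could still hold. The 95% interval of LP minus CN lay within −0.30 and 0.30 on the log2 scale for 42 of 47 genes at D5, 35 at D10 and 42 at D28. The distance from the estimate to either bound had a median of 0.15 at D5 and D10 and of 0.14 at D28. The lowest lower bound was −0.44, for *Srsf10* at D5, and the highest upper bound 0.52, for *Srsf7-ps4* at D10.

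**Figure D5:**
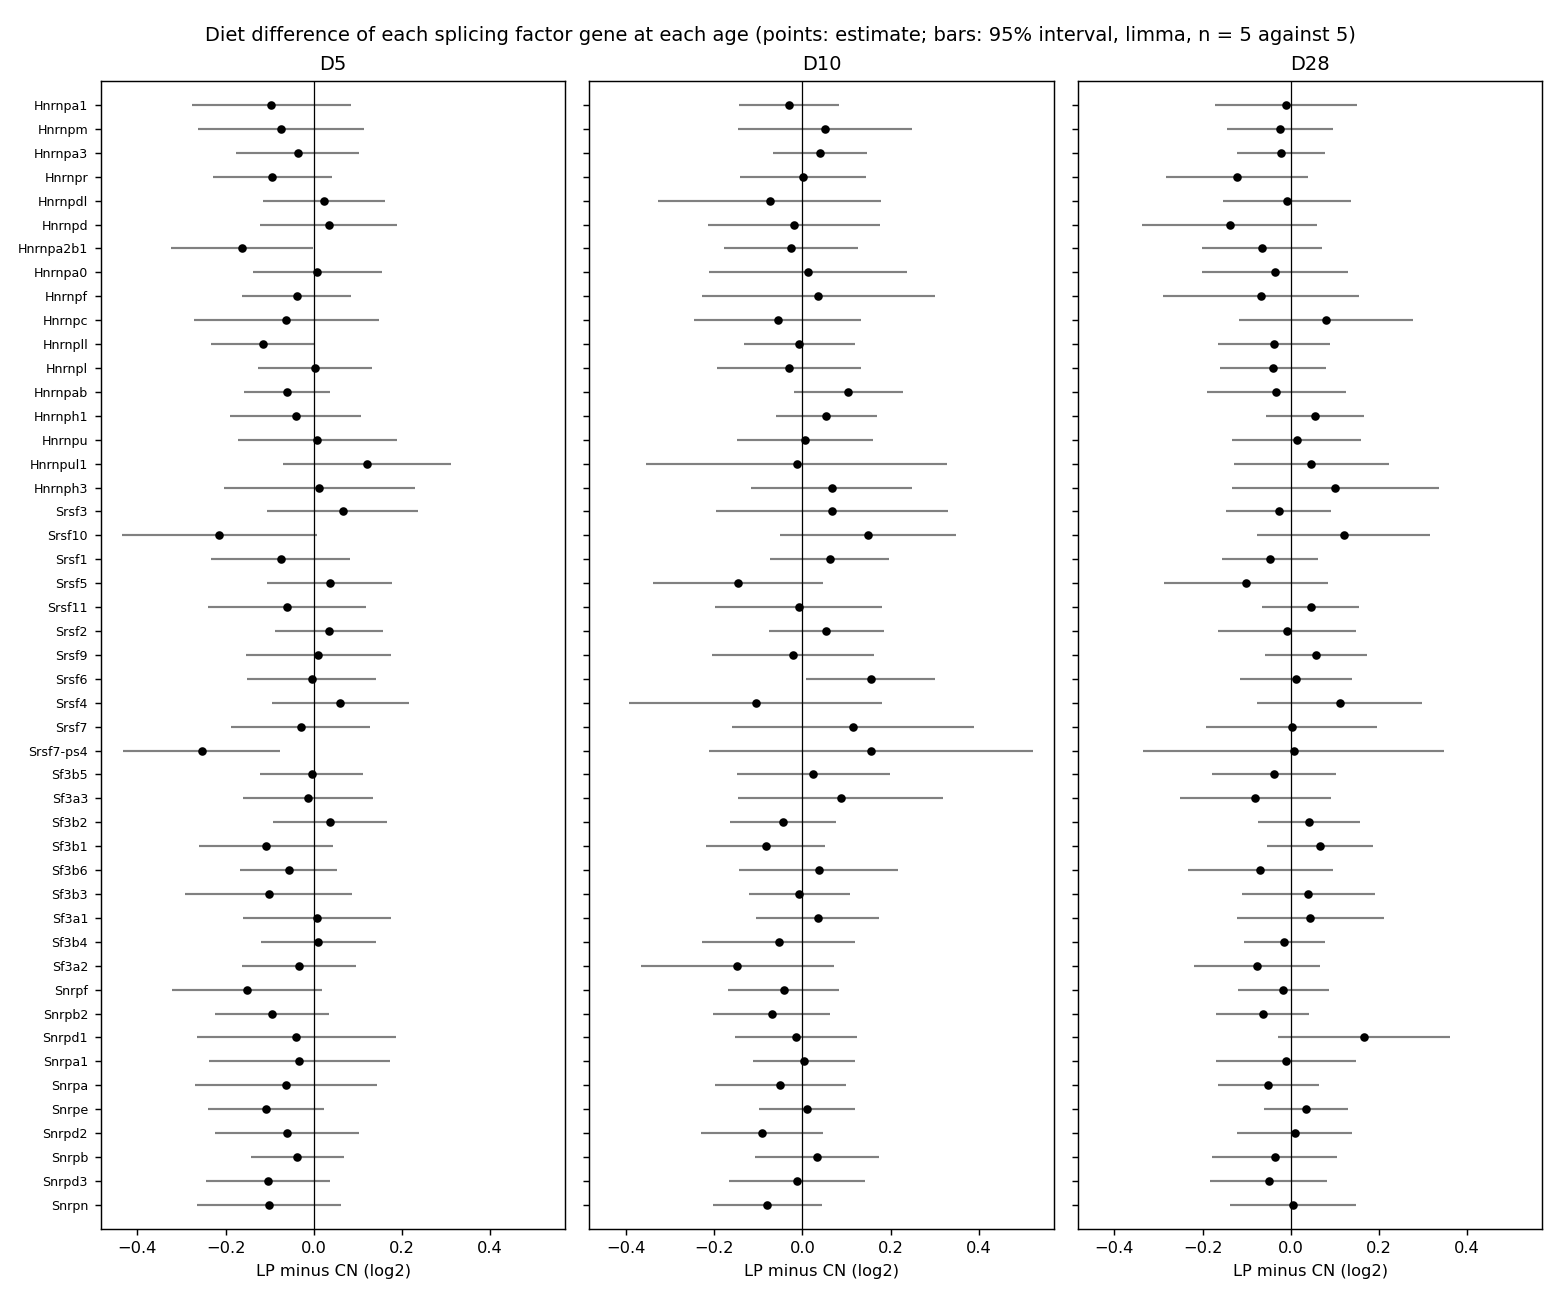
LP minus CN (log2, points) with its 95% interval from limma (bars) for the 47 genes at D5, D10 and D28, 5 arrays against 5. The points scatter around 0 at D10 and D28 and lean below 0 at D5, and most bars cross 0.

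At D5 the genes leaned lower in LP. LP was below CN in 32 of 47 genes, with a median of −0.04, where 50.3% of all probe sets were below 0. All 10 snRNP genes were below 0, with a median of −0.08. Without the D5-CN arrays 4 and 5, LP was below CN in 15 genes and above in 32, the median was 0.04, and 6 of 10 snRNP genes were below 0, where 52.4% of all probe sets were. These 2 arrays were picked because they read high for the 47 genes, and no D5-LP array was left out with them. Leaving them out raises LP minus CN by construction, so the change of side is no test of the lean. All 25 cell proliferation genes were below 0 in LP minus CN at D5, with a median of −0.17, and none was called. All 25 were below 0 at D28 as well, also with a median of −0.17, where these 2 arrays play no part, and 11 of 25 were at D10. The mean level of this list on D5-CN arrays 4 and 5 was 9.74 and 9.67, against 9.34 to 9.52 on the other D5-CN arrays. Other marker lists were higher in LP at D5, with 11 of 11 kidney tubule markers above 0 (median 0.10), 9 of 9 inner medulla markers (median 0.19) and 8 of 9 cortex markers (median 0.06), none of them called. The kidney tubule and cortex lists overlap in genes, so they are not separate readings. Marker lists differed at the later ages too, again with none called. At D28, 7 of 9 inner medulla markers were above 0 (median 0.37), while 8 of 11 kidney tubule and 7 of 9 cortex markers were below 0. Leukocyte markers were below 0 in 7 of 7 at both D10 and D28, and 6 of 7 adipose tissue markers were above 0 at D10 (median 0.46). The part of any of these lists in the diet differences of the splicing genes was not tested.

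The gene with the smallest p at D5 was the pseudogene *Srsf7-ps4*. It read 7.53, 7.70, 7.50, 7.70 and 7.44 in D5-LP and 7.86, 7.65, 7.68, 7.96 and 7.98 in D5-CN. The ranges overlapped although each LP array was below the CN mean, and the difference was −0.25 ± 0.08 (SE, limma, adjusted p = 0.523, exact permutation p = 0.0476). *Hnrnpll*, which directs splicing of the leukocyte surface protein CD45 in mouse and human T cells, read 9.56, 9.71, 9.68, 9.78 and 9.74 in D5-LP and 9.75, 9.78, 9.79, 9.84 and 9.88 in D5-CN. A single LP array reached into the CN range, and the difference was −0.12 ± 0.05 (limma, adjusted p = 0.613, exact permutation p = 0.0159). *Hnrnpa2b1*, a relative of *Hnrnpa1* that also carries mRNA along the cytoskeleton, differed by −0.16 ± 0.07 (limma, adjusted p = 0.607). Its further probe sets were lower in LP by less, with means of 11.13, 10.28 and 9.82 in D5-LP against 11.22, 10.31 and 9.88 in D5-CN. The smallest p in the other direction belonged to *Hnrnpul1* (0.12 ± 0.09, limma, adjusted p = 0.753), *Srsf4* and *Srsf3* (0.06 and 0.07, limma, adjusted p = 0.871 for both). Without the D5-CN arrays 4 and 5 the difference was −0.16 for *Srsf7-ps4*, −0.08 for *Hnrnpll*, −0.08 for *Hnrnpa2b1*, 0.18 for *Hnrnpul1*, 0.13 for *Srsf4* and 0.14 for *Srsf3*, none of them called. Without them the smallest p at D5 belonged to *Snrpn* (−0.20 ± 0.07, limma, adjusted p = 0.276).

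At D10 the smallest p belonged to *Srsf6*, an SR protein that promotes exon inclusion. It read 10.96, 10.82, 10.83, 10.91 and 10.79 in D10-LP and 10.76, 10.58, 10.64, 10.68 and 10.88 in D10-CN. The groups overlapped through one CN array, and the difference was 0.16 ± 0.07 (limma, adjusted p = 0.968, exact permutation p = 0.0476). The further probe sets of *Srsf6* did not repeat it. Their means were 9.76 and 8.53 in D10-LP, against 9.78 and 8.50 in D10-CN. *Hnrnpab*, a bright relative of *Hnrnpd*, read 11.96, 11.96, 12.01, 11.89 and 11.98 in D10-LP and 11.91, 11.73, 11.79, 11.92 and 11.94 in D10-CN. Each LP array was above the CN mean, with overlap, and the difference was 0.10 ± 0.06 (limma, adjusted p = 0.999, exact permutation p = 0.0476). *Srsf10* differed by 0.15, *Srsf5* by −0.15, *Sf3a2* by −0.15 and *Snrpd2* by −0.09, all with limma adjusted p = 0.999. Over the 47 genes LP was below CN in 24 at D10, with a median of −0.01.

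At D28 the smallest p belonged to *Snrpd1*, which read 8.41, 8.56, 8.75, 8.45 and 8.28 in D28-LP and 8.20, 8.50, 8.37, 8.23 and 8.34 in D28-CN. The ranges overlapped widely, and the difference was 0.17 ± 0.09 (limma, adjusted p = 0.77, exact permutation p = 0.127). The second probe set of *Snrpd1* went the other way, with means of 7.39 in D28-LP and 7.47 in D28-CN. *Hnrnpr* differed by −0.12, *Hnrnpd* by −0.14, *Srsf10* by 0.12, *Snrpb2* by −0.06 and *Srsf4* by 0.11, with limma adjusted p of 0.77 to 0.785. LP was below CN in 27 of 47 genes, with a median of −0.01, where 56.2% of all probe sets were below 0. The exact permutation tests ran over 252 splits of 5 arrays against 5, two-sided, with a smallest possible p of 0.00794, and are given without adjustment.

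The diet differences were then compared between ages in 1 fit of all 30 arrays. None of the genes was called, and 0% of all probe sets were called in either contrast. For D28 against D5, 2 genes (*Srsf10* and *Snrpe*) had an unadjusted p under 0.05, where 4.35% of all probe sets had, and for D10 against D5 also 2 (*Srsf10* and *Hnrnpab*), where 4.64% had. *Srsf10* had the smallest p in both: LP minus CN stood at −0.21 on day 5, 0.15 on day 10 and 0.12 on day 28, a contrast of 0.33 ± 0.14 for D28 against D5 (limma, adjusted p = 1.000) and 0.36 ± 0.14 for D10 against D5 (limma, adjusted p = 0.999). Without the D5-CN arrays 4 and 5 these contrasts were 0.17 and 0.20. Next for D28 against D5 were *Snrpe* of the Sm ring (0.14 ± 0.07) and *Sf3b1* (0.17 ± 0.09), and for D10 against D5 *Hnrnpab* (0.16 ± 0.08) and *Srsf7-ps4* (0.41 ± 0.21). Without the 2 arrays these were 0.08 for *Snrpe*, 0.08 for *Sf3b1*, 0.14 for *Hnrnpab* and 0.31 for *Srsf7-ps4*. The brightest probe set of *Sf3b1* gave D28 minus D5 of −0.49 in LP and −0.67 in CN. Its further probe sets read nearly alike in both diets, at −0.59 and −0.88 in LP against −0.61 and −0.91 in CN. *Hnrnpab* read 12.27, 12.26, 12.31, 12.32 and 12.33 in D5-LP and 12.34, 12.31, 12.35, 12.38 and 12.42 in D5-CN, each LP array below the CN mean, the opposite of its D10 order.

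Averaged over the 3 ages, none of the genes was called, where 0.312% of all probe sets were. At an unadjusted p under 0.05, 2 differed (*Snrpb2* and *Hnrnpa2b1*), where 11.4% of all probe sets differed in either direction. The further probe sets of *Hnrnpa2b1* kept no single direction at the later ages. Their means were 10.70, 10.29 and 9.492 in D10-LP against 10.61, 10.35 and 9.489 in D10-CN. At D28 they were 10.68, 10.105 and 9.213 in LP against 10.73, 10.026 and 9.204 in CN. The smallest p belonged to *Snrpb2* (−0.08 ± 0.03, limma, adjusted p = 0.33), *Hnrnpa2b1* (−0.08 ± 0.04, limma, adjusted p = 0.414) and *Snrpf* (−0.07 ± 0.04, limma, adjusted p = 0.453). Without the D5-CN arrays 4 and 5 these were −0.06 for *Snrpb2*, −0.06 for *Hnrnpa2b1* and −0.03 for *Snrpf*. No gene of the 47 was then called, while 646 of 31042 probe sets were called higher and 1397 lower in LP. With all arrays 97 probe sets were called in either direction. The number of calls therefore depended strongly on these 2 arrays, which were picked after the values were seen.

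The wider splicing list held no call between the diets either, over its 125 measured genes at the 3 ages. The smallest p belonged at D5 to *Cwc15*, a spliceosome component (−0.15), *Magoh* of the exon junction complex (−0.18) and *Lsm5* of the Sm-like ring (−0.21), with limma adjusted p of 0.523 to 0.558. At D10 they were *Coil*, the scaffold of Cajal bodies (0.18), the helicase *Dhx16* (0.12) and *Clk1* (0.25). At D28 they were *Rnpc3* of the minor spliceosome (0.17), *Tra2a*, an SR-like exon activator (0.24), and *Mbnl3* (0.29), with limma adjusted p = 0.77.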

How the data were processed

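Kidney RNA of 30 samples was measured on GeneChip rat arrays. Normalization was done by the authors in R (qFARMS, going by the names of their tables), and the deposited values are on a log2 scale. Tables of the authors' own rank product comparisons were not used, nor their 30 array columns, which name no sample. Of 31099 probe sets, 57 controls were left out. A symbol of their own was given to 20826 of the tested probe sets, several symbols to 436 and none to 9780, by the platform annotation, and 8 probe sets on which a matching symbol stood beside another were left out. All 47 genes were found in the RefSeq table. Diets were compared within age with limma 3.58.1 in R 4.3.3 (lmFit, eBayes), 5 arrays against 5, adjusted over all probe sets at 0.2, the FDR threshold of the study's rank products. For diet by age contrasts all 30 arrays entered 1 model. Between ages, group means and the overlap of arrays were described. Rank products used 100 permutations. Fits and rank products were tested on simulated data. Alternatives were quantile normalization, median centring, percentiles, leaving out dim probe sets, means of probe sets, other variance models and tests, the replicate block and leaving out each array. Their number limits the precision. Named genes were those called or with the 3 smallest p in each direction at each age, the 8 largest differences in each direction between D28 and D5 (fewer where fewer were above 0), the 3 largest in each shorter interval, the 3 smallest p in each contrast and the 5 whose further probe sets differed most, and for other splicing genes the 3 smallest p and the 4 largest differences. *Snrpn* was named as an imprinted gene. *Snrpb*, *Srsf1*, *Srsf7*, *Sf3b5*, *Snrpa* and *Snrpa1* were chosen after their values were seen. The members and lists were chosen with earlier results of these data known. Tables were summarized with Python 3.11.15 and pandas 2.3.3, and plots drawn with matplotlib 3.10.9.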

Additional observations from a re-analysis of the deposited data

Results flagged for a closer look

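Among the 48 combinations of gene and group whose arrays are given above, 1 held an outlying array, where chance flags about 1 in 20. *Srsf10* read 8.25 on D28-CN array 1, while the other 4 arrays of that group lay between 8.58 and 8.67, a gap of 0.780 of the group's range against a critical value of 0.71. No diet by age contrast of a member was called.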

How the results depend on the processing

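No member was called between the diets under any of the alternatives run. The replicate block left 0 members called at D5, D10 and D28 and in the diet by age and averaged comparisons. Same-numbered arrays showed no steady pairing, with correlations of their deviations from the group means from −0.70 to 0.65. Only at D10, for numbers 1 and 3, did an LP array correlate best with the CN array of its own number. Whether the numbers stand for a shared litter or batch is not known. Between D28 and D5, lower members numbered 40 to 42 in LP and 43 to 44 in CN when each array was left out, with medians of −0.69 to −0.64 and −0.70 to −0.64. Higher members numbered 0 to 1 in LP when each array was left out (without D28-LP array 1 or D5-LP array 5), 1 under quantile normalization, median centring and percentiles, and 2 in CN without the D5-CN arrays 4 and 5, a setting chosen after seeing the data.

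The median of the age differences over the members stayed below 0 under each scaling, while its size moved and single members changed side: 42 members were below 0 from D5 to D10 in LP under quantile normalization, against 45, and 41 from D10 to D28 in CN under median centring, against 44. The median of all probe sets from D5 to D28 in LP was 0.02 under quantile normalization and 0.04 under median centring, against −0.04. Quantile normalization gave medians of −0.20 in LP and −0.28 in CN from D5 to D10, −0.40 in CN from D10 to D28 and −0.58 in LP from D5 to D28. Median centring gave −0.30 in LP from D10 to D28, with 1 higher member in CN, and −0.59 in LP from D5 to D28. From D10 to D28 higher members numbered 0 to 1 in each diet when each array was left out. Over all probe sets the split moved more: with quantile normalization 13.2% were lower and 12.2% higher from D5 to D10 in LP and 13.4% and 11.6% in CN, against 20.3% and 7.8%, and 19.4% and 7.46%, and from D5 to D28 26.1% and 26% in LP and 25.8% and 25.3% in CN. The averaged diet comparison called 261 probe sets higher and 991 lower in LP under median centring and 17 higher and 8 lower with the replicate block, against 48 and 49, and no member in any of them. At D5, LP was below CN in 39 of 47 members under median centring and 33 under quantile normalization, against 32. Median centring lowers LP minus CN at D5 by the same amount for all probe sets, not for the members alone. Array medians were 6.83 to 6.87 in D5-LP and 6.82 to 6.85 in D5-CN.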
